A study of Drosophila melanogaster with 6 samples.

Results

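The maltase family of Drosophila melanogaster comprises 10 genes, the Mal-A cluster of 8 genes on chromosome arm 2R and the Mal-B pair on arm 2L. All 10 members were found in the count tables by their current symbols, and all 10 were among the 8941 genes that passed a filter on low counts and were tested. Their transcripts were measured by RNA-seq in the midguts, where food is digested and absorbed, of females and males. Every fly was a virgin w1118 (a white-eyed laboratory strain) aged 15 days and kept at 29 °C, so the groups differed by labelled sex only. There were 3 female and 3 male libraries, each from 30 pooled midguts, and nothing in the labels says whether the pools came from separate cultures. The p-values therefore measure the spread between pools, which may be partly technical.

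Maltases are alpha-glucosidases that split maltose, short maltose chains and sucrose and so release glucose. Starch is first cut by amylases, maltases finish the digestion at the enterocyte surface and in the gut lumen, and the released glucose is taken up by sugar transporters. The insect enzymes belong to the same family of glycoside hydrolases as amylase. Mal-A1, Mal-A2 and Mal-A3 also carry the older names LvpH, LvpD and LvpL.

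Levels are given as CPM, counts relative to library size, scaled between libraries with TMM, an edgeR method that aligns the bulk of genes. Library totals lay between 23825935 and 38406746 counts, at which a floor of 3 counts stood for 0.0781 to 0.126 CPM, counting error only. Enterocyte markers (6 of 6 detected, 0 called) summed to 2861 to 3259 CPM in females and 2741 to 3216 CPM in males, and 3 markers of the middle and posterior midgut regions (lab, Vha100-4 and Ptx1, 0 called) to 478 to 527 and 409 to 446 CPM, lower in every male library. Sums of neighbouring tissue markers were 473 to 1141 CPM in females and 697 to 1311 CPM in males for visceral muscle, 6.46 to 24.9 and 5.68 to 17.3 CPM for fat body, 0.331 to 2.48 and 0.579 to 2.16 CPM for haemocytes, and 28.8 to 35.8 and 45.7 to 61.5 CPM for Malpighian tubule. In the tubule list Irk2 was higher in males, and its defining gene Uro was at 0 in all libraries except male replicate 3 (0.104 CPM). Enteroendocrine markers summed to 307 to 353 CPM in females and 414 to 464 CPM in males (2 of 6 higher in males, Tk and AstA), and Delta, the stem cell marker analysed, was also higher in males (2.92 ± 0.810 against 5.95 ± 0.517 CPM, SD, n = 3 each, edgeR adjusted p = 0.04). Delta was not called whichever library was left out (adjusted p = 0.0621 to 0.115), Tk and AstA were called only without male replicate 3 (0.0641 to 0.157 and 0.0642 to 0.147 in the other 5 fits), and Irk2 was lost without female replicate 2 (0.0556) or 3 (0.0706). The part of these markers in the maltase results was not tested. The listed markers esg (progenitors), wupA (visceral muscle), Fat-spondin (fat body) and vas (germline) were not matched to an identifier, so their lists lack them. Fewer cells of a type and less RNA per cell cannot be told apart in bulk midgut.

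All 8 genes of the Mal-A cluster were higher in males, by 2.07-fold to 5.53-fold, and neither Mal-B gene passed the test. The background in the same edgeR fit was 5.53% of all tested genes higher in males, 3.87% higher in females and 9.39% in either direction, called at a Benjamini-Hochberg adjusted p under 0.05. The median log2 female over male was -1.25 over the 8 Mal-A genes and -1.17 over all 10 members, against -0.02 over all tested genes. The female and male libraries did not overlap for 9 of the 10 members, Mal-B1 being the exception, where 26.2% of all tested genes had no overlap (13.8% with males higher and 12.4% with females higher). A fitted fold of at least 2 toward males was found for 8 of 8 Mal-A genes and for 6.53% of all tested genes.

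**Figure D1:**
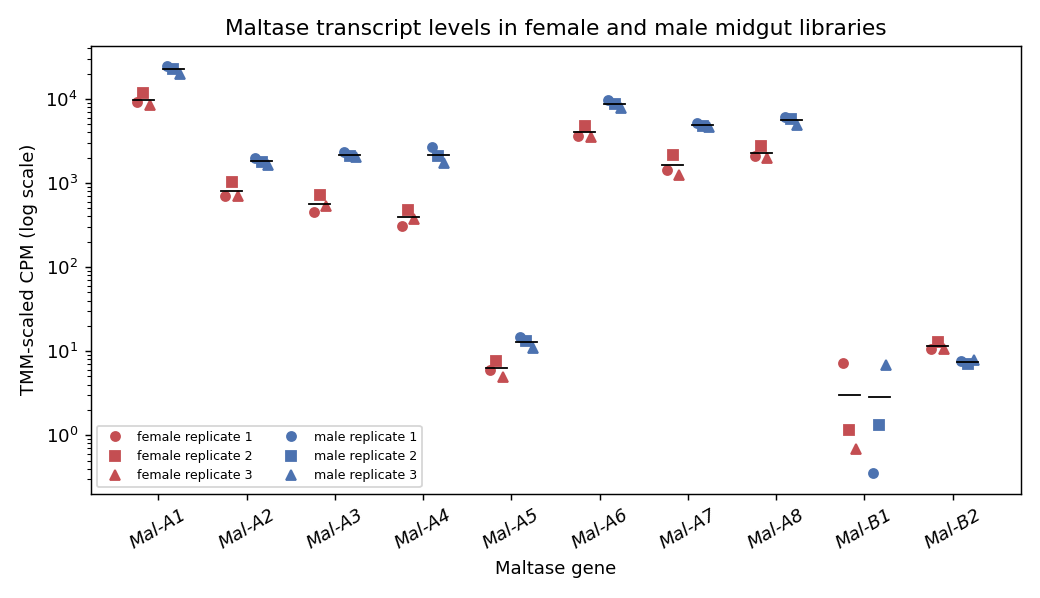
Level of each maltase gene in each library, as TMM-scaled CPM on a log axis. Red points are the 3 female and blue points the 3 male libraries, with a symbol for each replicate number and a black line at the mean of a sex; the male points lie above the female points for all 8 Mal-A genes, the order is the opposite for Mal-B2, and the sexes overlap for Mal-B1.

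Mal-A1 carried the most counts of the family. It stood at 9259, 11719 and 8417 CPM in female replicates 1 to 3 and at 24395, 22705 and 19960 CPM in male replicates 1 to 3. Every male library stood well above every female library. The log2 female over male was -1.19 ± 0.19 (SE, edgeR adjusted p = 0.00247). Mal-A1 shares 82 exonic bases with the P450 gene Cyp4e1 on the opposite strand, and how strand was handled in counting is not given in the sources. Cyp4e1 had 33 to 66 counts in females and 159 to 218 in males, 0.00921% to 0.0293% of the Mal-A1 counts of the same library.

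Mal-A6 and Mal-A8 came next in level. Mal-A6 was at 3638, 4787 and 3553 CPM in females and 9720, 8795 and 7772 CPM in males (log2 -1.13 ± 0.18, edgeR adjusted p = 0.00298). Mal-A8, the last gene of the cluster, was at 2098, 2714 and 1981 CPM in females and 6115, 5827 and 4881 CPM in males (log2 -1.31 ± 0.18, edgeR adjusted p = 0.00129). Mal-A6 was 2.19-fold and Mal-A8 2.48-fold higher in males, with no overlap between the sexes. Mal-A7 was at 1439, 2179 and 1232 CPM in females and 5153, 4770 and 4599 CPM in males, which came to 2.99-fold (log2 -1.58 ± 0.22, edgeR adjusted p = 0.00122). Mal-A2 was at 705, 1021 and 699 CPM in females and 1984, 1773 and 1652 CPM in males (log2 -1.16 ± 0.19, edgeR adjusted p = 0.00309).

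Mal-A3 and Mal-A4, neighbours inside the cluster, had the largest fold changes of the family. Mal-A4 was at 311, 479 and 377 CPM in females and 2669, 2067 and 1728 CPM in males, 5.53-fold higher in males (log2 -2.47 ± 0.22, edgeR adjusted p = 0.000101). For Mal-A3 the values were 457, 711 and 531 CPM in females and 2349, 2097 and 2012 CPM in males, 3.80-fold (log2 -1.93 ± 0.19, edgeR adjusted p = 0.000154). For both genes every male library was far above every female library. Per kb of exon, both were below Mal-A2 within each female library and above it within each male library.

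Mal-A5 was the weakly expressed gene of the cluster. It had 146, 236 and 145 counts in females and 453, 430 and 423 counts in males, or 6.05, 7.72 and 4.93 CPM against 14.5, 13.1 and 11 CPM. The log2 female over male was -1.05 ± 0.21 (edgeR adjusted p = 0.0108), a call lost without female replicate 1 (0.0517). It lies between Mal-A4 and Mal-A6 on the chromosome, yet per kb of exon its level was 60.6 to 90.1 times below that of Mal-A4 in the female libraries and 185 to 216 times below in the male libraries. Against Mal-A6 it was 552 to 662 times lower in females and 613 to 647 times lower in males.

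The Mal-B genes were low in both sexes. Mal-B2 was at 10.6, 13 and 10.5 CPM in females and 7.57, 7.10 and 7.87 CPM in males, from 233 to 398 counts. All female libraries were above all male libraries, but the log2 female over male of 0.60 ± 0.18 did not pass (edgeR adjusted p = 0.0647). DESeq2 called it (adjusted p = 0.0321), a tool that called 6.17% of all tested genes higher in females and 7.35% higher in males.

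Mal-B1 differed between libraries within each sex. It had 173, 35 and 20 counts in females and 11, 44 and 265 counts in males, that is 7.17, 1.14 and 0.68 CPM against 0.353, 1.34 and 6.90 CPM. Female replicate 1 and male replicate 3 stood above the other 4 libraries, and no difference between the sexes was detectable (log2 0.04 ± 1.33, edgeR adjusted p = 0.994). The log2 value was -1.65 without female replicate 1 and 1.80 without male replicate 3, neither past the threshold. Male replicate 3 was also the library with the most counts of germline and male accessory gland markers (19.8 CPM summed, against 0 to 0.122 CPM in the other 5), and female replicate 1 that with the highest fat body sum (24.9 CPM). The next fat body sums were 17.3 CPM in male replicate 2, where Mal-B1 was at 1.34 CPM, and 15.4 CPM in male replicate 3. The part of either marker list in the Mal-B1 values was not tested. The within-library log2 ratio of Mal-B2 to Mal-B1 averaged 2.67 ± 1.84 over the female and 2.34 ± 2.12 over the male libraries (SD, n = 3 each; two-sided exact permutation test, p = 0.9, with 0.1 the lowest p possible for 3 against 3).

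**Figure D2:**
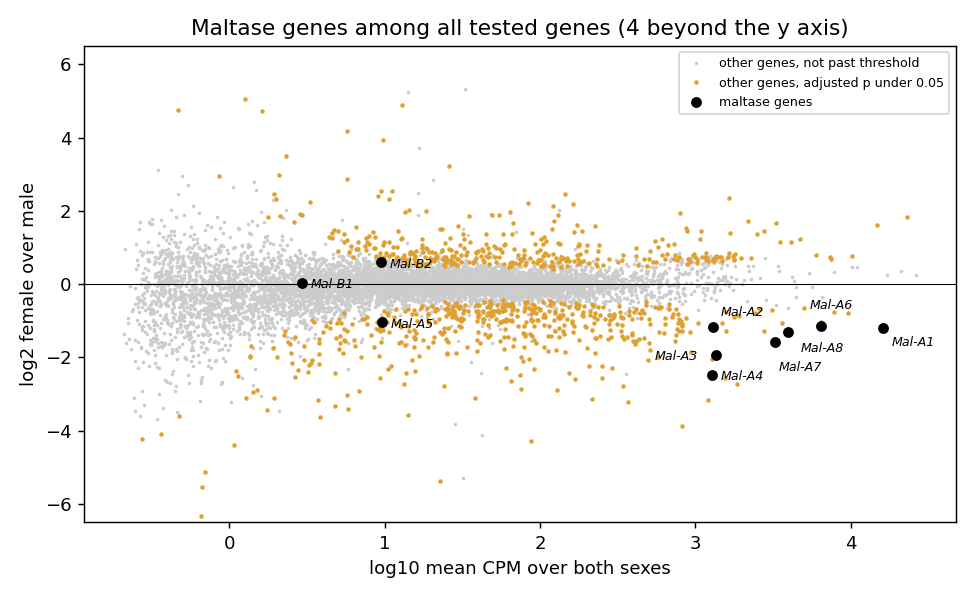
Fitted log2 female over male of every tested gene against its log10 mean CPM over both sexes, with maltase genes in black, other genes past the threshold in orange and the rest in grey; 4 genes lie beyond the y axis. Mal-A1 to Mal-A4 and Mal-A6 to Mal-A8 sit at the right, below 0, while Mal-A5 and the Mal-B genes lie at about 10 CPM or less.

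The order of levels was judged per kb of annotated exon, since CPM grows with gene length. In females Mal-A1 stood at 5366 ± 940 CPM per kb (SD, n = 3), Mal-A6 at 1743 ± 301, Mal-A8 at 1248 ± 217 and Mal-A7 at 595 ± 183. These 4 did not overlap with their neighbours in the order down to Mal-A7. From there on, Mal-A7 overlapped Mal-A2 (397 ± 90.6), Mal-A2 overlapped Mal-A3 (316 ± 72.9) and Mal-A3 overlapped Mal-A4 (218 ± 47.4). Then came a gap of 44.7-fold to Mal-B2 (4.88 ± 0.615), followed by Mal-A5 (2.96 ± 0.668) and Mal-B1 (1.65 ± 2), with overlap between Mal-A5 and Mal-B1.

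In males the same 4 genes led, Mal-A1 at 12242 ± 1226 CPM per kb, Mal-A6 at 3825 ± 425, Mal-A8 at 3091 ± 356 and Mal-A7 at 1782 ± 105, none overlapping the next. Mal-A4 (1206 ± 267) and Mal-A3 (1199 ± 97.8) overlapped each other and stood above Mal-A2 (886 ± 82.6), Mal-A3 without overlap. A gap of 144-fold separated Mal-A2 from Mal-A5 (6.13 ± 0.842), with Mal-B2 (3.23 ± 0.166) and Mal-B1 (1.58 ± 1.95) at the end. Mal-B2 and Mal-B1 overlapped each other. Among 8573 tested genes with an annotated exon length, Mal-A1 ranked 16 by mean CPM per kb in females and 5 in males, Mal-A6 59 and 21, and Mal-A4 386 and 80. With the coding length in place of the exon length, Mal-A3 and Mal-A4 changed places in males and no other place changed.

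Together the 10 genes took 1.82%, 2.17% and 1.70% of all counts in female replicates 1 to 3 and 5.34%, 4.99% and 4.26% in male replicates 1 to 3. Within the family total, Mal-A1 made up 50.4% ± 1.07 in female and 46.9% ± 0.352 in male libraries (SD, n = 3 each). Mal-A6 followed with 20.6% ± 0.501 and 18.4% ± 0.166, and Mal-A8 held 11.7% ± 0.155 and 11.7% ± 0.345. The share of Mal-A4 was 2% ± 0.255 in females and 4.48% ± 0.542 in males, and that of Mal-A3 was 2.91% ± 0.319 and 4.52% ± 0.181. These shares sum to 100% in a library, so a higher share of Mal-A4 goes with a lower share of another member.

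Ratios within a library, which no scaling between libraries can move, compared the members with Mal-A1. This comparison was chosen after the values were seen. The log2 ratio of Mal-A4 to Mal-A1 was -4.89, -4.61 and -4.48 in females and -3.19, -3.46 and -3.53 in males, a female minus male difference of -1.27 without overlap. Mal-A3 and Mal-A7 moved the same way against Mal-A1, by -0.75 and -0.42, and Mal-A8 by -0.12, again with no overlap. Mal-B2 went the other way, at -9.77, -9.81 and -9.65 in females and -11.65, -11.64 and -11.31 in males, a difference of 1.79. The exact permutation test (two-sided) gave p = 0.1 for each of these 5, the lowest possible with 3 against 3, and 0.18 when adjusted over the 9 ratios. For Mal-A2, Mal-A5, Mal-A6 and Mal-B1 the ratio to Mal-A1 overlapped between the sexes (exact permutation p of 0.2 to 0.8).

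**Figure D3:**
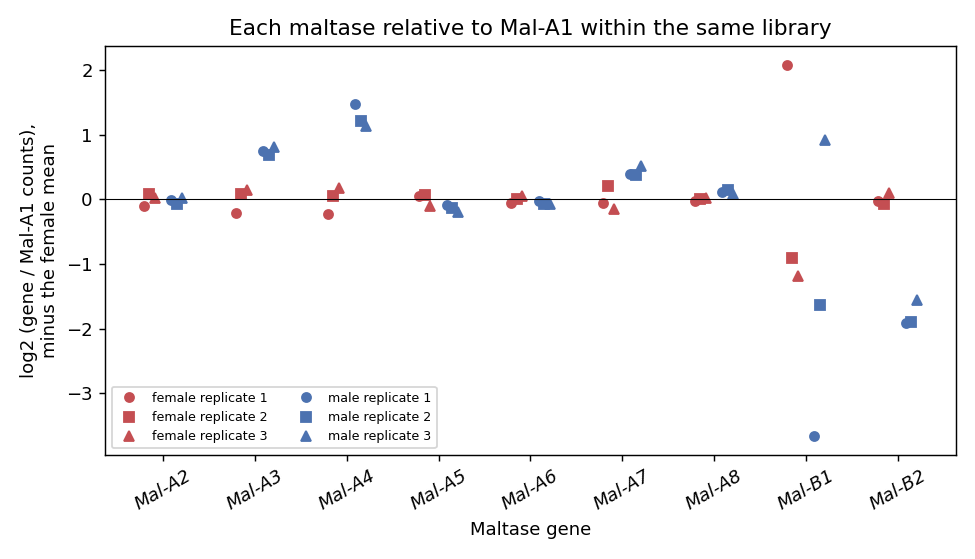
Log2 ratio of each maltase gene to Mal-A1 in the same library, with the mean of the 3 female libraries of that gene subtracted, so that 0 is the female mean. Red points are female and blue points male libraries; the male points of Mal-A3, Mal-A4, Mal-A7 and Mal-A8 lie above all female points, those of Mal-B2 lie below, and Mal-B1 is scattered.

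The Mal-A genes shared their highest female library and the order of the male libraries. Female replicate 2 was the highest female library for 8 of 8 Mal-A genes, as for 35.7% of all tested genes, while the lowest was replicate 1 for Mal-A3 and Mal-A4 and replicate 3 for the others. Male replicate 1 was the highest and male replicate 3 the lowest male library for 8 of 8, as for 22.4% of all tested genes. In Mal-A4, for instance, the male libraries ran from 1728 to 2669 CPM. With all members in 6 shared libraries, these counts are not independent of each other.

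Along the chromosome, the difference was seen in the Mal-A genes of both strands. Mal-A1, Mal-A3 and Mal-A7 lie on the minus strand and the other 5 on the plus strand, and no other tested gene lies between them. On the side of Mal-A1, the nearest tested gene, Cyp4e1, was higher in males (2.28, 1.08 and 2.24 CPM in females, 6.19, 6.64 and 4.14 CPM in males, log2 -1.60 ± 0.35, edgeR adjusted p = 0.0146, and 0.0801 without male replicate 2). The P450 genes beyond it, Cyp4e2 and Cyp4ad1, did not pass (log2 0.37 ± 0.20 and 0.25 ± 0.14, edgeR adjusted p = 0.331 and 0.353).

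On the side of Mal-A8, mtt, a gene for a receptor of the metabotropic glutamate type, was at 14.1, 15.2 and 9.96 CPM in females and 45.2, 39 and 26.5 CPM in males (log2 -1.49 ± 0.22, edgeR adjusted p = 0.00189). It lies on the opposite strand and shares 6 exonic bases with Mal-A8, whose counts it reached to 0.503% to 0.739%. CG12780, next along, was higher in males as well (log2 -1.01 ± 0.19, edgeR adjusted p = 0.00698), and Cyp6a14 after it did not pass (log2 -0.13 ± 0.19, edgeR adjusted p = 0.788). Whether reads from Mal-A1 and Mal-A8 entered the counts of Cyp4e1 and mtt was not tested. Around the Mal-B pair, 1 of the 6 nearest tested genes was called, CG31704, with a mean of 41.6 ± 7.13 CPM in male and 18.9 ± 6.63 CPM in female libraries (SD, n = 3 each, edgeR adjusted p = 0.0108). That call was lost without female replicate 1 (0.0534) or female replicate 3 (0.0538). Mal-B1 and Mal-B2 lie within introns of Pde1c, a phosphodiesterase gene on the opposite strand not analysed here, with no shared exonic base.

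**Figure D4:**
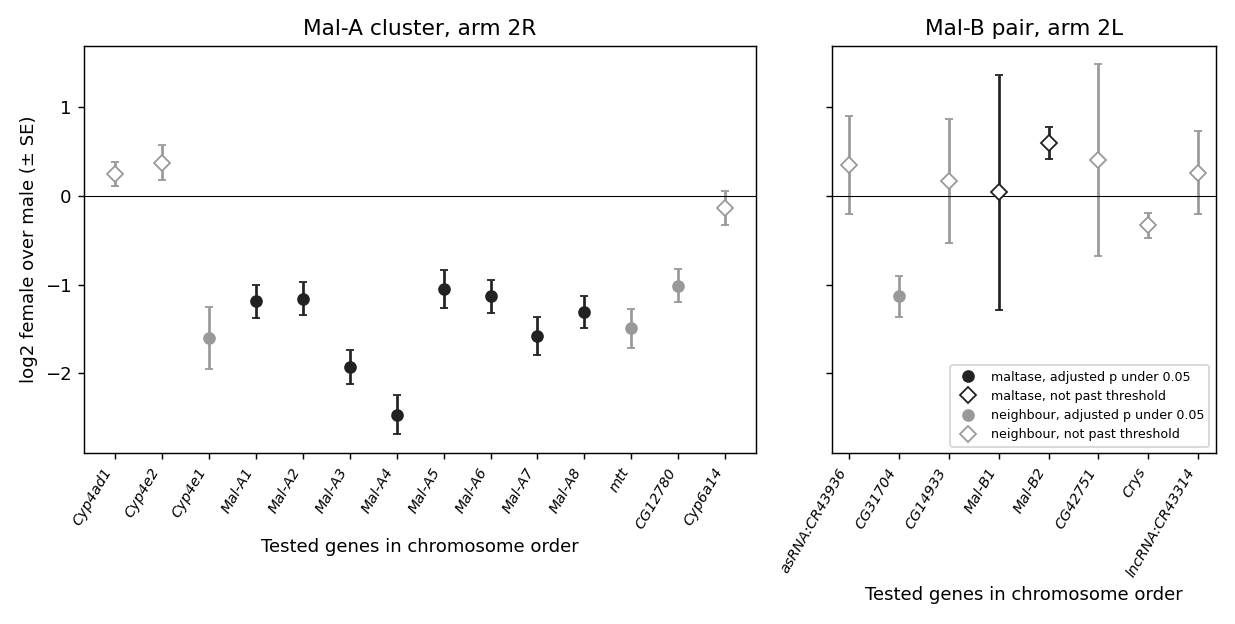
Log2 female over male with its SE for the maltase genes in black and the 3 nearest tested genes on each side in grey, in the order of the annotation and not to scale along the chromosome; filled circles passed an adjusted p under 0.05 and open diamonds did not. The Mal-A genes and the adjoining Cyp4e1, mtt and CG12780 lie at or below -1.01, and the Mal-B pair lies at 0.04 and 0.60.

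Other genes of carbohydrate digestion and sugar handling showed the same direction in most cases. Of 6 further genes of the glycoside hydrolase family of the maltases, 5 were higher in males and 0 higher in females, with a median log2 of -0.70 against -0.02 over all tested genes. Amyrel, an amylase-related gene, was at 38.2, 62.7 and 41.4 CPM in females and 406, 254 and 198 CPM in males (log2 -2.59 ± 0.30, edgeR adjusted p = 0.000911), beside -2.47 for Mal-A4. AGBE, which codes for the branching enzyme of glycogen synthesis, was at 26.3, 28.2 and 28.5 CPM against 57.9, 51.2 and 46.1 CPM (log2 -0.90 ± 0.14, edgeR adjusted p = 0.002). The others called were the near-identical amylase genes Amy-p and Amy-d and the glycogen debranching gene CG9485 (edgeR adjusted p = 0.0345, 0.0402 and 0.0323). Leaving out female replicate 1, male replicate 1 or male replicate 2 ended the calls of Amy-p (0.0988 to 0.181), Amy-d (0.0996 to 0.194) and CG9485 (0.0870 to 0.108); female replicate 3 ended those of Amy-p (0.155) and Amy-d (0.174), and female replicate 2 that of CG9485 (0.111). The count was 2 without female replicate 1, male replicate 1 or male replicate 2, 3 without female replicate 3, and 3 when the carbohydrate genes were kept out of the scaling. CD98hc, which codes for an amino acid transporter subunit with a glucosidase-like domain, had a mean of 106 ± 4.43 CPM in female and 99.7 ± 15.4 CPM in male libraries (SD, n = 3 each, edgeR adjusted p = 0.82).

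Of 4 glucosidase and trehalase genes outside that family, 3 were higher in males and 0 in females. tobi, an alpha-glucosidase gene named as a target of brain insulin, was at 4119, 5669 and 2949 CPM in females and 9335, 8865 and 7668 CPM in males (log2 -1.02 ± 0.23, edgeR adjusted p = 0.0169). The other called genes were Treh, the trehalase gene (log2 -0.94 ± 0.18, edgeR adjusted p = 0.00767), and CG33080 (log2 -0.73 ± 0.17, edgeR adjusted p = 0.0189). All 3 calls were lost without female replicate 1 (edgeR adjusted p = 0.0916, 0.051 and 0.111). tobi and CG33080 were also not called without female replicate 3 (0.0646 and 0.0919) or male replicate 1 (0.0511 and 0.0563), nor tobi without male replicate 2 (0.0692). GCS2alpha, whose product trims glucose from glycoproteins in the endoplasmic reticulum, was at 351 ± 19.6 and 360 ± 26.4 CPM (edgeR adjusted p = 0.938).

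Genes for known or predicted sugar transporters and for hexokinases were partly higher in males. Of 8 tested sugar transporter genes, 4 were higher in males and 0 in females. The predicted transporter gene CG6484 was at 860, 1160 and 854 CPM in females and 2303, 1840 and 1811 CPM in males (log2 -1.05 ± 0.18, edgeR adjusted p = 0.00442). nebu (log2 -0.98 ± 0.15, edgeR adjusted p = 0.00241) and the trehalose transporter gene Tret1-1 (log2 -1.29 ± 0.23, edgeR adjusted p = 0.00534) were called in every fit that left out a library, whereas sut1 (edgeR adjusted p = 0.0331) was called only in the fit without male replicate 1 (0.0161) and not in the other 5 (0.0505 to 0.156). Hex-A, a hexokinase gene, was higher in males at 274 ± 82.4 against 122 ± 15.7 CPM (SD, n = 3 each, edgeR adjusted p = 0.00553). Hex-C, the other hexokinase gene tested, had a mean of 15.0 ± 2.81 CPM in female and 20.0 ± 4.24 CPM in male libraries (edgeR adjusted p = 0.276).

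Regulators known in flies to act on sugar responses or digestive enzyme genes did not share a direction. Of 11 tested, 1 was higher in males and 2 in females, with a median log2 of 0.13. sug, a transcription factor gene induced by dietary sugar in larvae, was at 192, 147 and 188 CPM in females and 69.4, 57.5 and 59.8 CPM in males (log2 1.5 ± 0.15, edgeR adjusted p = 0.000154). bigmax, whose product is the DNA-binding partner of the sugar sensor Mondo, was also higher in females (39.2, 44.4 and 40.9 against 21.8, 15.9 and 21.5 CPM, log2 1.07 ± 0.15, edgeR adjusted p = 0.00158). Mondo itself was at 242, 213 and 149 CPM in females and 343, 441 and 308 CPM in males (edgeR adjusted p = 0.0214). Its call needed female replicates 2 and 3 and male replicate 2, since the adjusted p was 0.0562, 0.088 and 0.105 when each was left out.

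daw codes for an activin ligand that is known to rise with dietary sugar and to lower midgut amylase and maltase transcripts. It was at 33.5, 21.9 and 28.8 CPM in females and 1.25, 5.06 and 8.62 CPM in males. The sexes did not overlap, but the log2 of 2.48 ± 0.65 did not pass in edgeR (adjusted p = 0.0813). It passed without male replicate 1 (log2 2.04, edgeR adjusted p = 0.00155), in DESeq2 (adjusted p = 0.00735) and in limma-voom (0.00557). No other fit called daw. The edgeR adjusted p ran up to 0.283 with a library left out and up to 0.26 in the other settings. The genes for its receptor babo and its effector Smox were at 73.2 ± 5.36 and 73.9 ± 3.75 CPM in females and 66.9 ± 11.5 and 66.1 ± 6.13 CPM in males (SD, n = 3 each, edgeR adjusted p = 0.72 and 0.549).

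**Figure D5:**
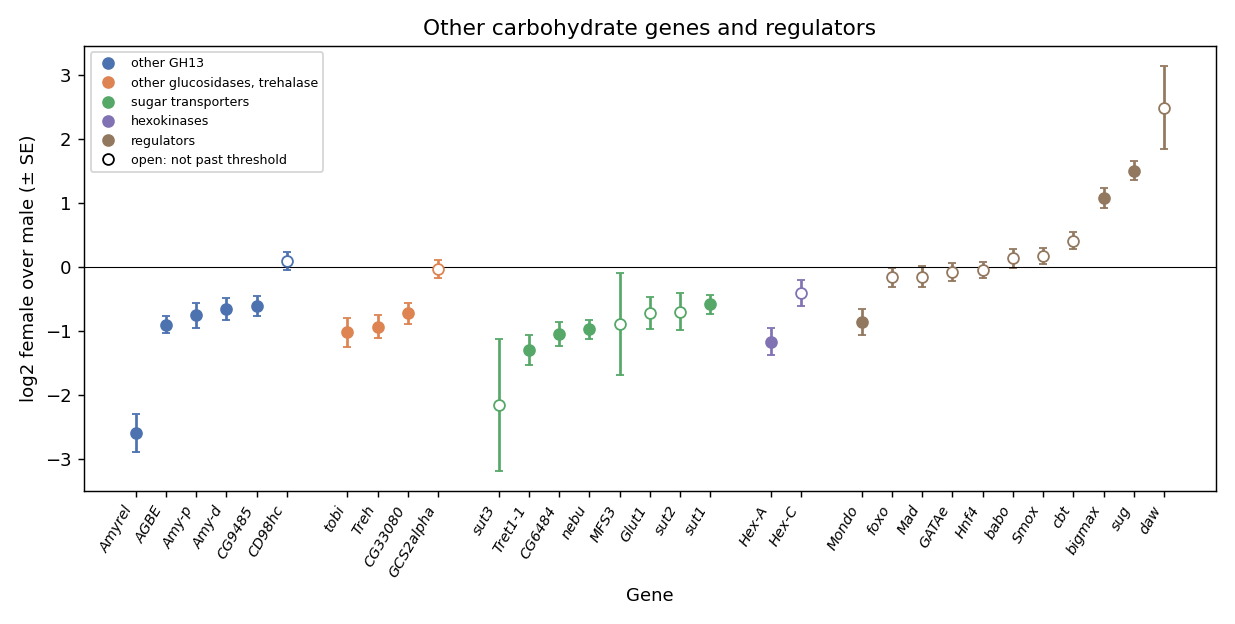
Log2 female over male with its SE for the tested genes of 5 lists other than the maltases, coloured by list; filled points passed an adjusted p under 0.05 and open points did not. The called digestion, transporter and hexokinase genes lie below 0, from -2.59 to -0.59, and sug and bigmax lie above it at 1.5 and 1.07.

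Genes whose levels followed the maltases most closely over the 6 libraries were ranked by Pearson's r of log2(CPM + 0.1) with the mean of the 10 members, among genes with a mean of at least 10 CPM. Each member had equal weight in that mean, so the scattered Mal-B1 (0.353 to 7.17 CPM) counted as much as Mal-A1. The first 5 were CG3397, LManVI, CG18179, CG4462 and CG34316, with r of 0.993 to 0.995. With the 8 Mal-A genes alone, a choice made after the values were seen, the first 5 were CG5793, CG9331, CG18180, CG1640 and Jupiter, with r of 0.996 to 0.999, and no gene was in both groups of 5. CG5793 was at 17.1, 27.3 and 17.6 CPM in females and 116, 96.9 and 88.7 CPM in males (log2 -2.28 ± 0.20). As the libraries fall into 2 groups by sex, these values mostly restate the sex difference and carry no test.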

How the data were processed

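RNA-seq was made from midguts of 3 female and 3 male pools with poly(A)-selecting, strand-marking kits, per the labels' protocols. The values are counts of reads per gene as the authors deposited them, whole numbers that were not normalized. TopHat2 2.0.11, HTSeq and build dm3 are named in the submitters' processing notes; how HTSeq treated strand and reads matching several places, and which annotation it used, the sources do not state. Reads shared among the related maltase genes could therefore shift single values.

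From the counts, low genes were removed (filterByExpr with sex as the group, at least 10 counts, total of at least 15), TMM factors were computed, and edgeR 4.0.16 in R 4.3.3 ran its robust quasi-likelihood F test on sex alone over all 6 libraries; called means a Benjamini-Hochberg adjusted p under 0.05 over 8941 genes. Each SE was derived from the F statistic and the log2 fold change, so it restates the p. Symbols, exon and coding lengths, strands and gene order came from current tables and the Ensembl annotation of BDGP6, matched by identifier; coordinates were left out because the builds differ. Protein and promoter sequences were not analysed here. Single ratios were compared with exact permutation tests (SciPy 1.17.1). Replicate pairs gave chi-square values of at least 29.8 per degree of freedom, beyond sampling noise, so each library counted once.

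Named genes were all members, the fixed lists, the 3 nearest tested genes on each side and the 5 genes most like the members. Members and lists were chosen with earlier results of these data known. Alternatives were RLE factors, no scaling, TMM without carbohydrate genes, no filter beyond 1 count, 5 CPM in 3 libraries, DESeq2 1.42.0, limma-voom (limma 3.58.1), the replicate number as a block and each library left out. The test was tried on simulated data of 3 female against 3 male libraries, with 200 genes changed. It called 16% of genes changed 1.5-fold, 58% of those changed 2-fold and 94% of those changed 4-fold or 8-fold. Of its 140 calls, 9 were unchanged genes.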

Additional observations from a re-analysis of the deposited data

How the results depend on the processing

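The count of members higher in males was 8 in all 8 fits with another scaling, filter, tool or block, and 7 to 8 when a library was left out. The count higher in females was 0 except in DESeq2, where it was 1, Mal-B2. Over all genes, 494 were higher in males (332 to 513 with a library left out) and 346 higher in females (164 to 419 with a library left out, 552 in DESeq2). The replicate number showed no sign of pairing: deviations of same-numbered libraries correlated at -0.199 to -0.0992, and none correlated best with its own number. With 3 libraries a sex, these correlations cannot show that same-numbered pools were handled apart. With the replicate block, 415 and 261 genes were called, the members' counts stayed at 8 and 0, and 2 of the 6 other genes of the maltases' hydrolase family were higher in males in place of 5, as were 3 of the 8 sugar transporter genes in place of 4. Calls lost with the block were those of Amy-p, Amy-d and CG9485 (adjusted p = 0.0558, 0.0761 and 0.0596), sut1 (0.086), Delta (0.0544) and Tk (0.117). AstA was lost in limma-voom (0.0512). The count of these hydrolase genes was 4 with RLE factors, which ended the call of Amy-d (edgeR adjusted p = 0.054). It was 3 with TMM without carbohydrate genes, which ended those of Amy-p (0.0538) and Amy-d (0.0621), and 2 to 5 with a library left out. With a library left out, 0 to 3 glucosidase and trehalase genes and 0 to 1 regulators were higher in males. In DESeq2, 4 regulators were higher in females in place of 2. The log2 value of Mal-B1, 0.04 at first, was -0.047 in limma-voom and -1.65 to 1.80 with a library left out. The female minus male log2 ratio of Mal-B2 to Mal-B1, 0.33, ran from -0.74 to 1.39 with a library left out. With coding lengths, Mal-A1 over Mal-A6 per kb was 2.56 in females and 2.66 in males, where exon lengths gave 3.08 and 3.20. The counts were the same in both, and only the length they were divided by changed. With a library left out, the log2 value changed sign for 4 genes never called, from -0.0059 to 0.231 for CD98hc, -0.078 to 0.024 for GCS2alpha, -0.0067 to 0.223 for babo and -0.368 to 0.0123 for Cyp6a14. The alternatives were run for the 10 members and 35 of the other named genes, and 554 of 628 values kept direction and side of the threshold. Mal-B1, at 11 to 265 counts a library, varied between libraries of a sex far more than Mal-A5 (145 to 453 counts) and Mal-B2 (233 to 398 counts). Count level was not matched, since Mal-B1 had 11 to 44 counts in female replicates 2 and 3 and male replicates 1 and 2.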
